A study of Mus musculus with 9 samples.

Results

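Fibroblasts of the mouse thyroid were examined as the cells that carry the label F in the authors' deposited cell annotation, 538 of 10186 cells in all. The study profiled dissociated thyroids of male C57BL/6 mice by droplet single-cell RNA sequencing (10x Genomics 3' chemistry) 7 days after 1 intraperitoneal dose of antibody. The 3 antibody groups had 3 samples each (n = 3), and every sample was a pool of thyroids from 6 mice without disease. The control group, RW, received an anti-ragweed isotype control antibody at 40 mg/kg. The group aJ1aJ2 received blocking antibodies against the Notch ligands Jag1 and Jag2 at 20 mg/kg each. The group aN1aN2 received blocking antibodies against the receptors Notch1 and Notch2 at 5 and 10 mg/kg. The age of the mice was 10 to 12 weeks in the study's design text and 10 to 14 weeks in its treatment protocol. The antibodies were given to the whole animal, so no group isolates Notch blockade in fibroblasts. The labels describe the samples as separate pools and say no more about how they were raised or run.

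Fibroblasts build the connective tissue that carries the follicles, capillaries and nerves of the thyroid. They secrete procollagen chains, which are folded and hydroxylated in the endoplasmic reticulum, trimmed outside the cell and cross-linked into fibrils together with proteoglycans, glycoproteins and elastic fibres. Notch receptors are cleaved after contact with a Jagged or Delta-like ligand on a neighbouring cell, and the released fragment switches on genes of the Hes and Hey families. Jag1 and Jag2 antibodies act on the ligand side of this contact and Notch1 and Notch2 antibodies on the receptor side.

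The F cells of a sample held between 107055 and 796140 UMIs (unique molecular identifiers, counts of captured RNA molecules). The median F cell had 5561 to 10026 UMIs across the RW samples, 5232 to 7910 across aJ1aJ2 and 2295 to 3864 across aN1aN2. The numbers in the sample titles fall into 3 ranges, whose meaning the labels do not give. RW 3 and aJ1aJ2 1 are in the first, RW 1, RW 2, aJ1aJ2 3 and aJ1aJ2 4 in the second, and the aN1aN2 samples in the third. The aN1aN2 treatment and the third range therefore cannot be told apart. RW 3 stood apart from RW 1 and RW 2 in its collagen and clock transcripts, and aN1aN2 2 contained 1 F cell with 63.6% globin UMIs. Among all cells, 30 had a barcode that also occurred in another library, and 1 of them was an F cell.

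The 5 fibroblast markers set the F cells apart from the other labels. Levels are given as CPM, the usual depth-scaled unit, in which the UMIs of a gene are summed over the cells and divided by the summed UMIs of the same cells. Where F cells are given by sample, the divisor is instead the total of the genes tested, scaled between samples. Dcn, which encodes the collagen-binding proteoglycan decorin, was at 23949 CPM in F cells, against 1150.4 CPM in label S, the next highest, and 60.2 CPM in EC1, the largest endothelial label. Pdgfra, a receptor for platelet-derived growth factor that marks fibroblasts, was at 840.2 CPM in F and at no more than 15.2 CPM in any other label. Lum, Clec3b and Dpt were at 1650.3, 1839 and 1368 CPM in F, and at no more than 48.7, 6.69 and 21.8 CPM elsewhere. After each cell was thinned to 1000 UMIs, 99.8% of 484 F cells held a Dcn UMI, against 1.56% of 1602 EC1 cells (99.8% of 538 and 5.30% of 1603 unthinned, at median depths of 5632.5 and 3994 UMIs). Only F cells with at least 1000 UMIs entered the thinned shares, which left out 54 F cells.

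Markers of other cell types were also present in F cells. The 5 erythroid markers summed to 119 to 322 CPM in RW, 177 to 1082 CPM in aJ1aJ2, 953 and 1383 CPM in aN1aN2 1 and 3, and 48011 CPM (4.37% of UMIs) in aN1aN2 2, the sample with the globin-rich cell. Summed over 8 thyrocyte markers, the F cells held 361 to 596 CPM in RW, 309 to 729.6 CPM in aJ1aJ2 and 576 to 1022 CPM in aN1aN2. Thyroglobulin (Tg), the most abundant of these markers, was at 495 CPM over all F cells and at 92030.1 CPM in the thyrocyte label Th1. The 7 mural cell markers summed to 57.8 to 219 CPM in RW, 58.4 to 107 CPM in aJ1aJ2 and 21 to 46.4 CPM in aN1aN2. The 7 endothelial markers summed to 41.9 to 143 CPM and the 7 macrophage markers to at most 20.7 CPM, with the macrophage gene Adgre1 and the Schwann cell gene Sox10 at 0 in every sample. The part of these transcripts in the results below was not tested, except where a value without such cells is given.

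F cells made up a larger share of the aJ1aJ2 samples than of the RW samples. Their share of all cells was 3.45, 3.87 and 2.47% in RW 1, RW 2 and RW 3, 9.26, 6.70 and 7.81% in aJ1aJ2 1, aJ1aJ2 3 and aJ1aJ2 4, and 4.49, 4.63 and 4.80% in the 3 aN1aN2 samples. Every aJ1aJ2 sample lay above every sample of the other groups, and every aN1aN2 sample lay between aJ1aJ2 and RW. The mean was 3.26 ± 0.717% in RW, 7.92 ± 1.28% in aJ1aJ2 and 4.64 ± 0.157% in aN1aN2 (SD, n = 3). The share in aJ1aJ2 was 2.43-fold that in RW and the share in aN1aN2 1.42-fold. Each of the 3 comparisons had an exact two-sided permutation p of 0.1 (0.1 after adjustment over the 3), which is the smallest that 3 against 3 samples allow.

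**Figure D1:**
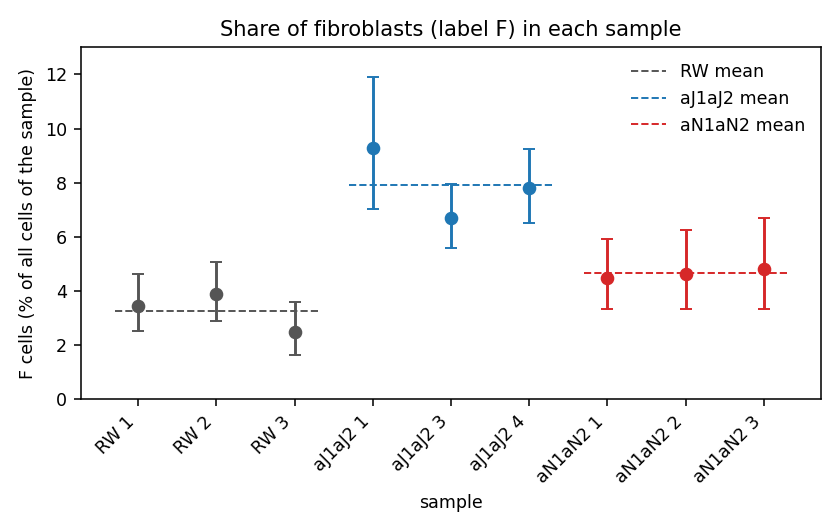
Share of F cells in each sample, as a percentage of all cells of that sample. Points are samples, bars are exact 95% binomial intervals, which cover counting error only, and dashed lines are group means; the 3 aJ1aJ2 samples (6.70 to 9.26%) lie above all others.

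The share depends on which other cells are in the denominator. With the erythroid labels Eryth1 and Eryth2 left out, aJ1aJ2 was 2.24-fold RW and aN1aN2 1.62-fold RW. With the thymocyte label T2 and the shallow labels Th2 and Th3 also left out, aJ1aJ2 stayed above RW in every sample, at 2.00-fold. Under that denominator aN1aN2 overlapped RW, at 7.18, 7.54 and 8.48% against 5.89, 8.19 and 3.30% (exact two-sided permutation p = 0.3). Dissociation and capture also set these shares, and their part was not tested.

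Gene expression was compared on UMIs summed over the F cells of each sample, in 4840 genes that passed a filter on low counts. Under ligand blockade few genes differed from control. In aJ1aJ2 against RW, 28 genes (0.579% of those tested) had an adjusted p under 0.05, 19 higher (0.393%) and 9 lower (0.186%). Of 133 genes on 10 matrix lists, 111 passed the filter, and 3 of them rose and 4 fell. The median log2 change of the 111 was -0.27, against 0.00 over all genes tested. In 13.3% of the genes tested the samples of the 2 groups did not overlap, called or not.

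The lower genes included chains of the fibril-forming collagens. Col3a1 (chr1:45311538-45349706, GRCm38), the chain of type III collagen, stood at 11760.1, 10636 and 4865 CPM in RW 1, 2 and 3 and at 3107, 1971 and 2603 CPM in aJ1aJ2 1, 3 and 4. The groups did not overlap, and RW 3 was the control sample nearest to aJ1aJ2. The log2 change was -1.83 ± 0.30 (SE; adjusted p = 0.00639). Col1a1 (chr11:94936224-94953042), the alpha 1 chain of type I collagen, was at 6495, 6145 and 3459 CPM in RW and 1898, 1394 and 2038 CPM in aJ1aJ2 (log2 change -1.60 ± 0.30, adjusted p = 0.0181). Its groups did not overlap either. The other 4 fibrillar collagen genes tested, Col1a2, Col5a1, Col5a2 and Col5a3, had log2 changes between -1.02 and -0.79 and did not pass the test. Over the 6 tested genes of the list of 8, the median log2 change was -0.98.

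These calls rest on few samples. Col3a1 no longer passed without RW 2 or without aJ1aJ2 3, and Col1a1 no longer passed without RW 1, RW 2 or any aJ1aJ2 sample. Both passed the test among the samples of the second title range alone and with the range as a block. Those 2 fits also changed the calls of the other 4 genes: with the block 5 of the 6 fibrillar collagens were called lower, and within the second range all 6. The second range holds only 2 samples of each of these groups. It leaves out aJ1aJ2 1 and RW 3, the control sample with the lowest share of collagen UMIs. The fibrillar collagens together took 2.40, 2.36 and 1.22% of F-cell UMIs in RW, 0.795, 0.603 and 0.805% in aJ1aJ2, and 0.273, 0.138 and 0.137% in aN1aN2. The 3 groups did not overlap, and RW 3 was again the control sample nearest to aJ1aJ2.

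**Figure D2:**
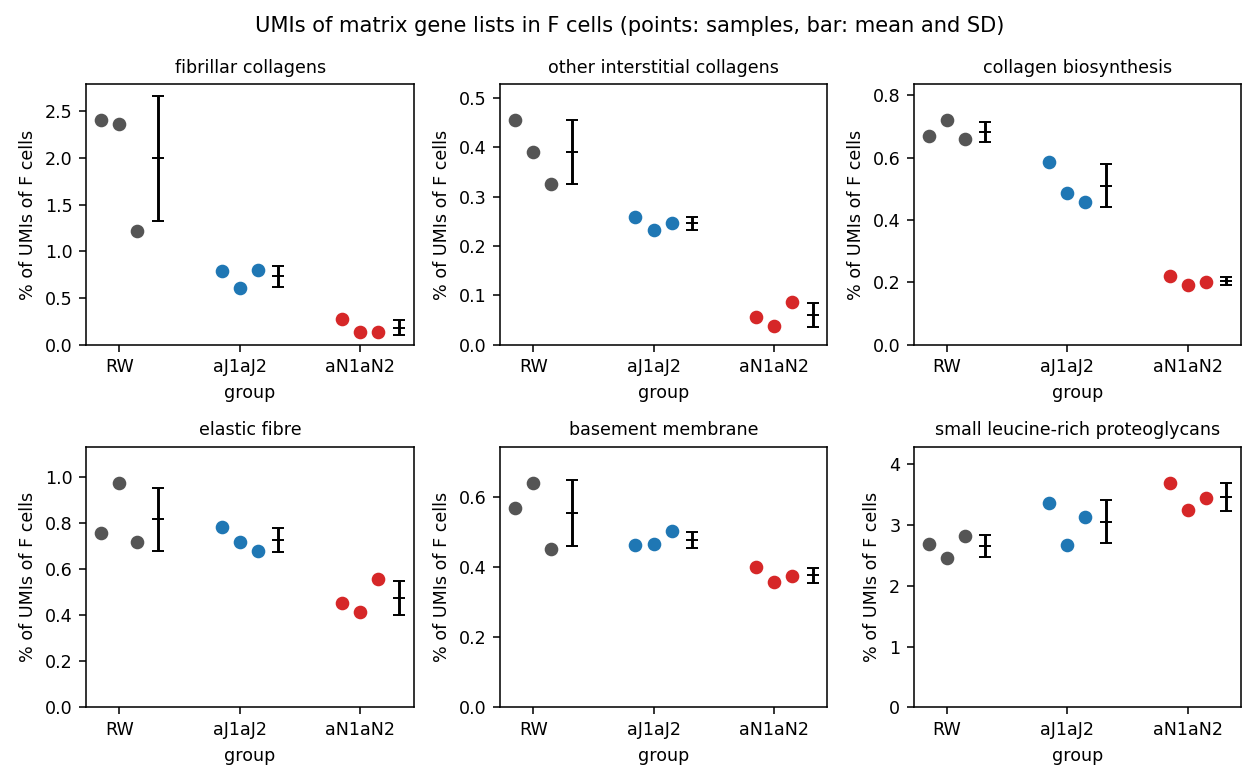
UMIs of 6 matrix gene lists as a percentage of all UMIs of F cells, by group. Points are samples and the bar beside them gives the mean and SD (n = 3); fibrillar collagens fall from 1.22 to 2.40% in RW to 0.137 to 0.273% in aN1aN2, while the small leucine-rich proteoglycans are at 2.46 to 2.82% in RW and 3.24 to 3.69% in aN1aN2.

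Of 18 secreted matrix glycoproteins tested under ligand blockade, 3 rose, 2 fell and 13 did not pass the test, and none passed with 26 cells drawn from every sample. Sparc (chr11:55394500-55423183), a collagen-binding glycoprotein needed for fibril assembly, stood at 5111, 5479 and 3601 CPM in RW and 2697, 1741 and 2371 CPM in aJ1aJ2 (log2 change -1.06 ± 0.22, adjusted p = 0.0376). Spon2, which encodes the secreted protein spondin 2, was at 119, 82.9 and 95 CPM in RW and 22.1, 27.5 and 16.7 CPM in aJ1aJ2 (log2 change -2.10 ± 0.29, adjusted p = 0.0048). In both genes the lowest control sample lay above the highest aJ1aJ2 sample. Sparc no longer passed without RW 1, RW 2, aJ1aJ2 3 or aJ1aJ2 4, without F cells holding other cells' markers, or after thinning to the smallest total. Neither Sparc nor Spon2 passed with 26 cells drawn from every sample. Postn, which encodes periostin, was at 123, 405 and 23.8 CPM in RW and 101, 12.4 and 20 CPM in aJ1aJ2. RW 2 was far above the other samples, the groups overlapped, and the gene did not pass the test (adjusted p = 0.117).

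After ligand blockade 3 matrix glycoproteins were higher. Thbs4, thrombospondin 4, a glycoprotein of tendon and muscle connective tissue, was at 65.4, 60.3 and 85.5 CPM in RW and 606, 154 and 314 CPM in aJ1aJ2. Myoc, myocilin, was at 88.5, 136 and 152 CPM in RW and 557, 803 and 528 CPM in aJ1aJ2. Cilp, a secreted glycoprotein of cartilage and fibrous tissue, was at 188, 106 and 247 CPM in RW and 829, 569 and 511 CPM in aJ1aJ2. For each of the 3 genes every aJ1aJ2 sample lay above every control sample, and Thbs4 varied most among the aJ1aJ2 samples. The log2 changes were 2.34 ± 0.40 for Thbs4, 2.33 ± 0.36 for Myoc and 1.86 ± 0.28 for Cilp, with adjusted p of 0.00811, 0.00639 and 0.00639. The 4 listed tendon markers, of which Thbs4 alone was tested, summed to 65.3 to 152 CPM in RW, 161 to 623 CPM in aJ1aJ2 and 19.9 to 63.1 CPM in aN1aN2. Tnmd was at 0, 2.51 and 47.5 CPM in RW and 14.7, 5.51 and 8.35 CPM in aJ1aJ2, Scx at 0, 2.51 and 14.3 CPM in RW and 2.45, 1.38 and 6.68 CPM in aJ1aJ2, and Mkx was at 0 in RW 1, RW 2, aJ1aJ2 1 and aJ1aJ2 3. The part of tendon cells in the rise of Thbs4 was not tested. With 26 cells drawn from every sample none of the 3 glycoproteins passed. Thbs4 was also lost without RW 2 and without F cells holding other cells' markers, and Myoc in DESeq2.

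Myoc, Cilp and Thbs4 UMIs were present in a minority of F cells. When the F cells were clustered, 1 cluster of 65 cells held Myoc, Thbs4 and Cilp among its 10 leading genes. Myoc was at 2336 CPM in that cluster and at 111 CPM in the other F cells. Thbs4 was at 1218 and 38.5 CPM, and Cilp at 1197 and 253 CPM. Whether the rises came from more cells of this kind or from more transcript per cell was not tested. After thinning to 1000 UMIs, 8.26% of RW, 18.6% of aJ1aJ2 and 8.49% of aN1aN2 F cells held a Myoc UMI (14.2, 24.6 and 10.7% unthinned), and 0 of 1602 EC1 cells did. For Cilp the thinned shares were 8.26, 16.0 and 2.83% (14.2, 24.6 and 8.26% unthinned). For Thbs4 they were 3.67, 7.06 and 0.943% (7.5, 11.1 and 4.13% unthinned). The median depths of F cells in the groups were 7664.5, 6146 and 3153 UMIs. The same 3 genes were not higher in aN1aN2: Cilp fell (188, 106 and 247 against 75.7, 33.2 and 115 CPM, log2 change -1.31 ± 0.40, adjusted p = 0.0266), whereas Thbs4 (56.8, 19.9 and 21 CPM) and Myoc (132, 265 and 10.5 CPM) did not pass the test. The samples of Cilp overlapped, since RW 2 lay below aN1aN2 3. Its call in aN1aN2 was lost without RW 1, RW 3, aN1aN2 1 or aN1aN2 2, with 26 cells drawn from every sample, after thinning to the smallest total, and without F cells holding other cells' markers, where the log2 change was -0.22.

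**Figure D3:**
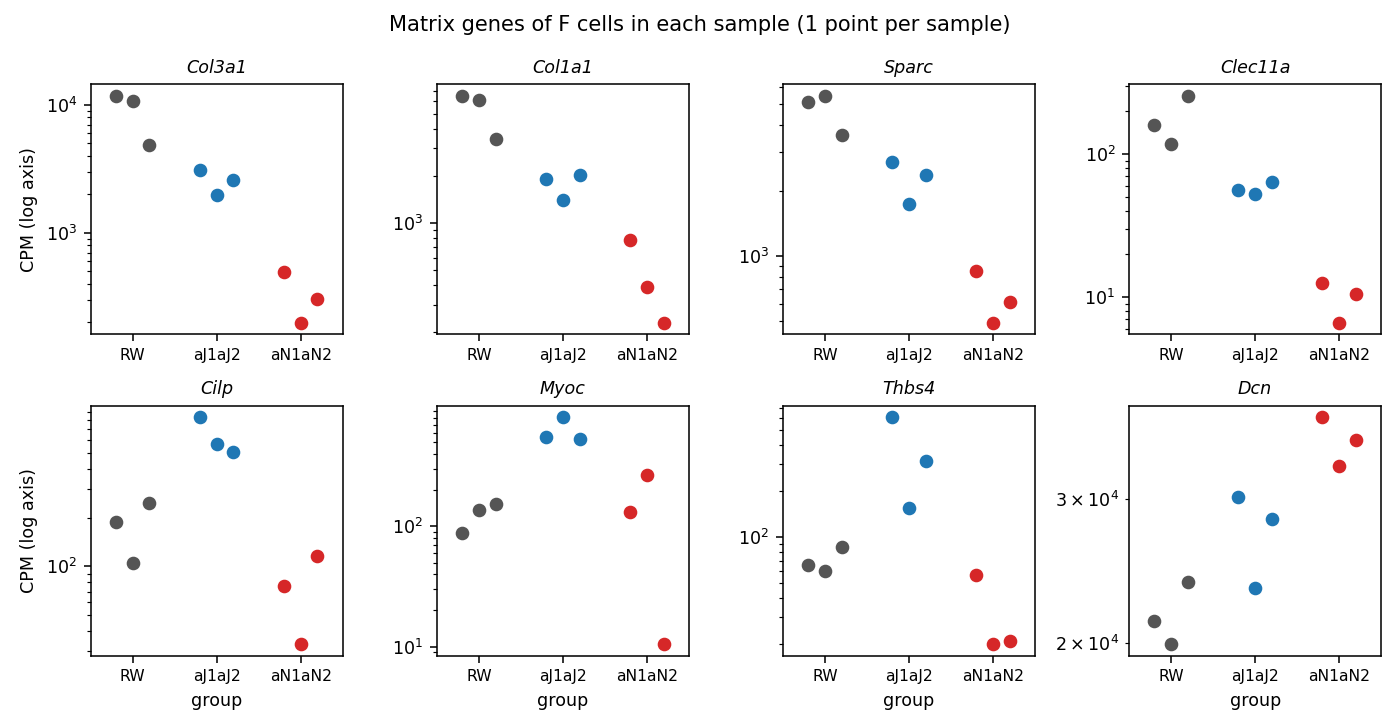
CPM in F cells of 8 matrix genes, 1 point per sample, on a log axis that differs between panels. Col3a1, Col1a1, Sparc and Clec11a are lower in both blockade groups, Cilp, Myoc and Thbs4 are high in aJ1aJ2, and Dcn is at 19936 to 23761 CPM in RW and 32872 to 37742 CPM in aN1aN2.

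Of 18 growth factors and chemokines tested, 1 was called under ligand blockade. This gene, Clec11a, a secreted growth factor also called osteolectin, was at 162, 118 and 257 CPM in RW and 56.4, 52.3 and 63.4 CPM in aJ1aJ2 (log2 change -1.57 ± 0.25, adjusted p = 0.00639). Angptl4, an inhibitor of lipoprotein lipase, was at 146, 176 and 109 CPM in RW and 34.3, 13.8 and 58.4 CPM in aJ1aJ2 (log2 change -2.08 ± 0.34, adjusted p = 0.00639). The groups did not overlap in either gene. Clec11a was lost without aJ1aJ2 3, without F cells holding other cells' markers, with 26 cells drawn from every sample, and after thinning to the smallest total, where the log2 change was -0.92. Angptl4 was lost without RW 2 and after that thinning. Angptl4 was higher than control in aN1aN2, at 341, 484 and 440.1 CPM (log2 change 1.51 ± 0.30, adjusted p = 0.00134). Slc6a6, the taurine transporter, rose (34.6, 15.1 and 42.8 CPM in RW, 80.9, 123 and 91.8 CPM in aJ1aJ2, 1.82 ± 0.32, adjusted p = 0.0109), a call lost without RW 2, aJ1aJ2 3 or F cells holding other cells' markers, with 26 cells drawn from every sample, and after thinning. Chchd10, a mitochondrial protein, rose in aJ1aJ2 (19.2, 20.1 and 4.75 CPM in RW, 71.1, 79.9 and 75.1 CPM in aJ1aJ2, 2.22 ± 0.49), a call lost when any sample was left out, and in aN1aN2 (454, 212 and 115 CPM, 4.07 ± 0.46). Angpt1, the ligand of the endothelial receptor Tie2, Clu, which encodes the secreted chaperone clusterin, and Pi15 were also lower in aJ1aJ2, with log2 changes of -1.79, -1.94 and -1.28. Each of these 3 calls was lost when RW 2 or any aJ1aJ2 sample was left out.

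Under receptor blockade the fibrillar collagens were lower. In aN1aN2 against RW, 958 genes (19.8%) passed the test, 444 higher (9.17%) and 514 lower (10.6%). All 6 fibrillar collagen genes tested were lower, with a median log2 change of -2.90 against 0.01 over all genes. The samples of the 2 groups did not overlap in 34.3% of the genes tested. In aN1aN2 1, 2 and 3, Col3a1 was at 492, 199 and 304 CPM (log2 change -4.77 ± 0.36, adjusted p = 3.84e-08) and Col1a1 at 776, 391 and 231 CPM (-3.49 ± 0.34, adjusted p = 8.49e-07). Col1a2 was at 6268, 6932 and 3868 CPM in RW, 2741, 2406 and 3302 CPM in aJ1aJ2 and 1344, 683 and 587 CPM in aN1aN2. Its log2 change was -2.69 ± 0.29 in aN1aN2 (adjusted p = 2.42e-06). In these 3 genes all aN1aN2 samples lay below all aJ1aJ2 samples. These 6 genes were lower, and passed the test, in aN1aN2 under every alternative run, including samples thinned to the smallest total of 107055 UMIs and F cells without UMIs of other cells' markers.

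The fall was also visible cell by cell. At 1000 UMIs per cell, 92.7% of RW, 75.8% of aJ1aJ2 and 13.2% of aN1aN2 F cells held a Col3a1 UMI (96.7, 89.6 and 40.5% unthinned), and 0.303% of EC1 cells did in RW. Dcn UMIs were present in 99.1, 100 and 100% of the same thinned F cells. The Col1a1 shares were 88.1, 63.9 and 19.8% thinned.

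The promoters of 3 fibrillar collagens that were lower in aN1aN2 are shown because the 6 tested genes of this list moved together. Col1a1 and Col5a2 had no match in the sequence table, and the window of Col1a2 overlaps an annotated UTR. Each is the 250 bases before the RefSeq start site (GRCm38.p6), on the strand of the gene, at chr1:45311288-45311537 (+) for Col3a1, chr2:27886175-27886424 (+) for Col5a1 and chr9:20815068-20815317 (-) for Col5a3. Capitals mark matches, on either strand, to CCAAT or to TATAAA.
Col3a1: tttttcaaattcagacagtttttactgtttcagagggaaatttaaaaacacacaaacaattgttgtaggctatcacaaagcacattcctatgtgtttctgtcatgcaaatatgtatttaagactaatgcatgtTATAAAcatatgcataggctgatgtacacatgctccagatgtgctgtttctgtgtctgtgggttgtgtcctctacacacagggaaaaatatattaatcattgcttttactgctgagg
Col5a1: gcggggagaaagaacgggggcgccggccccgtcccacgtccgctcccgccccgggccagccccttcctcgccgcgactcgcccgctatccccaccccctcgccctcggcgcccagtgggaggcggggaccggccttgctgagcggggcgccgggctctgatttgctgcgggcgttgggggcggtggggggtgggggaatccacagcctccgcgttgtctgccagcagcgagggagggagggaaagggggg
Col5a3: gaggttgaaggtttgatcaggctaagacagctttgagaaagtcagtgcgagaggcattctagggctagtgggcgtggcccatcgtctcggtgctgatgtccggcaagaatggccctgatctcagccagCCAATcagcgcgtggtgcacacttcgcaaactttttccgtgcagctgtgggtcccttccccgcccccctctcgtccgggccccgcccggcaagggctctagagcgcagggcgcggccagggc
Col3a1 has 1 TATAAA match, Col5a3 has 1 CCAAT match, and Col5a1 has neither. Of 32851 promoter windows of this length, 33.8% hold CCAAT and 12.4% hold TATAAA. A match is a run of letters and was not tested as a binding site.

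Other collagens of the interstitial matrix, a list that holds the beaded-filament, fibril-associated and short-chain types, were lower as well. Of 10 listed, 8 were tested and 6 fell (median log2 change -2.56). In aJ1aJ2 none of the 8 was called (median -0.71, with 7 at an unadjusted p under 0.05, against 8.53% of all genes tested), 4 were called lower within the second title range, and with the range as a block 3 were called lower and 1 higher. Col6a3, a chain of the beaded filaments of type VI collagen, was at 892, 945 and 684 CPM in RW, 459, 574 and 568 CPM in aJ1aJ2 and 107, 86.2 and 73.4 CPM in aN1aN2 (log2 change -3.21 ± 0.24 against RW, adjusted p = 3.84e-08). Col14a1, which binds the fibril surface, was at 988, 679 and 508 CPM in RW and 44.2, 19.9 and 115 CPM in aN1aN2 (-3.76 ± 0.37, adjusted p = 9.23e-07). In both genes all aN1aN2 samples lay far below all others. The partner chains Col6a1 (1731, 1379.8 and 1269 CPM in RW, 246, 166 and 493 CPM in aN1aN2, -2.33) and Col6a2 (1127, 1023 and 841 and 183, 73 and 189 CPM, -2.78) fell too. Col6a6 had 50 UMIs in RW and 2 in aN1aN2, a depth-scaled ratio of 11.7 (3.06 to 98.8), and its call was lost without aN1aN2 1. Col12a1 and Col8a1 did not pass the test (log2 changes -1.07 and -0.76).

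Enzymes and chaperones that make collagen followed the same direction. Of 19 listed, 18 were tested, 12 fell and none rose in aN1aN2 (median log2 change -1.15), against none called in aJ1aJ2 (median -0.40, with 7 of 18 at an unadjusted p under 0.05, against 8.53% of all genes tested). Serpinh1, the collagen-specific chaperone HSP47, was at 1638, 1968 and 1687 CPM in RW, 1238, 862 and 1023 CPM in aJ1aJ2 and 239.8, 219 and 157 CPM in aN1aN2 (-3.08 ± 0.22 in aN1aN2, adjusted p = 3.03e-08). Pcolce, which speeds the trimming of procollagen, was at 1638, 1601 and 1796 CPM in RW and 278, 252 and 367 CPM in aN1aN2 (-2.51 ± 0.24). P4hb, a subunit of prolyl 4-hydroxylase, fell by 1.91 on the log2 scale and the cross-linking enzyme Loxl2 by 2.70. Lox, another enzyme that cross-links collagen, is counted with the elastic fibre genes below and rose. Ppib, a prolyl isomerase of procollagen folding, was at 946, 1000.3 and 1093 CPM in RW and 379, 345 and 451 CPM in aN1aN2 (-1.38). The general chaperones of the endoplasmic reticulum were lower too. Of 15 tested, 10 fell (median -1.22), among them Sdf2l1 (-2.39), Hyou1 (-2.11), Hsp90b1 (-1.97) and Calr (-1.92), and none was called in aJ1aJ2 (median 0.04, with 5 of 15 at an unadjusted p under 0.05, against the same 8.53%). The call of Hyou1 was lost without RW 2, aN1aN2 2 or aN1aN2 3 and in DESeq2.

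**Figure D4:**
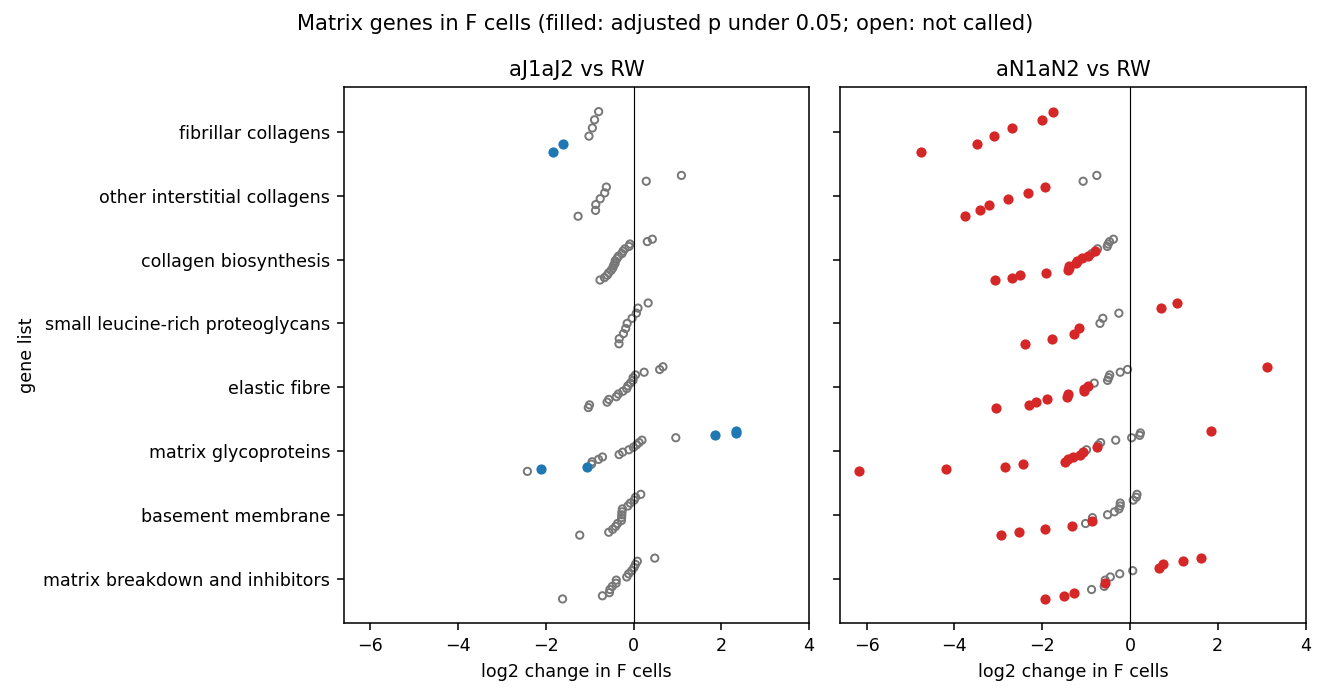
Log2 change in F cells of every tested gene on 8 matrix lists, in aJ1aJ2 against RW (left) and aN1aN2 against RW (right). Each point is a gene, filled where its adjusted p is under 0.05; on the right all 6 fibrillar collagens are filled and below 0, and Lox, at 3.13, is the elastic fibre gene far above 0.

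Elastic fibre genes mostly fell in aN1aN2, with 1 large exception. Of 18 listed, 16 were tested, 9 fell and 1 rose (median log2 change -1.0). Fbn1, fibrillin 1, the backbone of microfibrils, was at 1046, 2011 and 523 CPM in RW and 189, 113 and 126 CPM in aN1aN2 (-3.06 ± 0.39, adjusted p = 1.76e-05). RW 2 was the highest and RW 3 the lowest control sample, and the groups did not overlap. Lox, lysyl oxidase, which cross-links collagen and elastin, was at 53.8, 131 and 76 CPM in RW, 123, 127 and 162 CPM in aJ1aJ2 and 782, 916 and 692 CPM in aN1aN2. All aN1aN2 samples lay above all others (3.13 ± 0.26 against RW, adjusted p = 1.13e-07). The microfibril glycoprotein Mfap5 (-1.05), the fibulin Efemp2 (-2.13) and Emilin1 (-1.89) fell, whereas the abundant Fbln1 (-0.49) and Ltbp4 (-0.46) did not pass. The relatives of Lox, Loxl1 and Loxl2, went the other way (-2.30 and -2.70).

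Proteoglycans with leucine-rich repeats, which regulate fibril diameter, divided between higher and lower. Of 10 listed, 9 were tested, 2 rose and 4 fell in aN1aN2 (median -0.68), and none was called in aJ1aJ2 (none at an unadjusted p under 0.05). Dcn was at 21274, 19936 and 23761 CPM in RW and 37742, 32872 and 35461 CPM in aN1aN2 (0.71 ± 0.17, adjusted p = 0.00701), without overlap. That call was lost without RW 2 or without aN1aN2 1. Omd, osteomodulin, rose by 1.08 on the log2 scale, a call lost without aN1aN2 2 or aN1aN2 3. Aspn (-2.39), Ogn (-1.77), Lum (-1.28) and Bgn (-1.17) fell.

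Among the matrix glycoproteins, 18 of 22 were tested in aN1aN2 against RW, 10 fell and 1 rose (median -1.03). Sparc was at 852, 491 and 608 CPM in aN1aN2 (-2.86 ± 0.25, adjusted p = 2.05e-07). Fn1, fibronectin, was at 1854, 1531 and 755 CPM in RW and 505, 126 and 105 CPM in aN1aN2 (-2.43 ± 0.41, adjusted p = 0.00031). The groups did not overlap in either gene. Postn had 198 UMIs in the RW group and 1 in aN1aN2, a depth-scaled ratio of 92.3 with a 95% counting interval of 16.4 to 3663. RW 2 held 161 of the 198, and without it the ratio was 31.8 (5.37 to 1290.5). Spon2 had 84 and 2 UMIs, a ratio of 19.6 (5.25 to 164). Thbs1, thrombospondin 1, an activator of latent TGF-beta, rose (273, 111 and 28.5 CPM in RW, 707, 531 and 231 CPM in aN1aN2, 1.86 ± 0.46, adjusted p = 0.00792). RW 1 lay above aN1aN2 3, and the call was lost without aN1aN2 1 and in DESeq2.

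Among the basement membrane genes, some were lower. Of 18 listed, 15 were tested, 5 fell and none rose in aN1aN2 (median -0.51), namely Col15a1 (-2.94), Col18a1 (-2.54), Nid2 (-1.95), Lama4 (-1.31) and Nid1 (-0.86). Col4a1, a chain of the type IV collagen network, was at 758, 837 and 708 CPM in RW and 877, 882 and 786 CPM in aN1aN2 and did not pass the test (0.15). Its samples overlapped between the groups. The calls of Col18a1 (without aN1aN2 1 or 2) and Nid1 (without RW 2, aN1aN2 1 or 2, with equal cells or after thinning) were lost. Nid2 was lost with 26 cells drawn from every sample and without F cells holding other cells' markers, and Lama4 after thinning to the smallest total. Hspg2, perlecan, was at 804, 664 and 432 CPM in RW and 543, 372 and 419 CPM in aN1aN2 and did not pass (-0.51). Lamb1, a laminin chain, also did not pass (-0.22).

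Matrix-degrading enzymes and their inhibitors went both ways. Mmp11, stromelysin 3, a metalloproteinase outside the fixed list, was at 11.5, 20.1 and 19 CPM in RW, 71.1, 57.8 and 41.7 CPM in aJ1aJ2 and 145, 119 and 73.4 CPM in aN1aN2, without overlap between the 3 groups. It rose in aN1aN2 (2.74 ± 0.40, adjusted p = 7.24e-05) under every alternative run. Its rise in aJ1aJ2 (1.67 ± 0.37, adjusted p = 0.0478) was lost in 10 alternatives, among them any left-out RW sample. Of 18 listed, 14 were tested, 4 rose and 4 fell (median -0.51). Mmp14, a membrane-bound collagenase, was at 246, 194 and 199.6 CPM in RW and 593, 484 and 367 CPM in aN1aN2, without overlap (1.20 ± 0.20, adjusted p = 0.000361). The protease Adamts1 (1.63), the serine protease Htra3 (0.75) and the inhibitor Timp3 (0.66) also rose, and Htra1 (-1.94), Fap (-1.51), Mmp23 (-1.28) and Timp2 (-0.58) fell. The call of Timp3 was lost without RW 1, RW 2, aN1aN2 1 or aN1aN2 2, when genes with low counts were kept, and when 26 cells were drawn from every sample, where the log2 change was 0.06. That of Timp2 was lost without RW 2, aN1aN2 1 or aN1aN2 2, with equal cells, after thinning to the smallest total and in a fit of the 2 groups alone. That of Adamts1 was lost without aN1aN2 1, with equal cells and in DESeq2, and that of Mmp23 without aN1aN2 2. Vcan, the large hyaluronan-binding proteoglycan versican, fell (-2.96), and Tnfaip6, which modifies hyaluronan, rose (1.65, a call lost without aN1aN2 2 and after thinning). The hyaluronan receptor Cd44 did not pass (-0.21). No member of the CCN family passed the test (4 of 5 tested), with log2 changes of -0.54 for Ccn2, -0.25 for Ccn3 and -1.99 for Ccn5. Over all matrix lists, 9 of the 111 tested genes rose and 57 fell in aN1aN2 (median -0.96).

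The markers that define the cells were affected unequally in aN1aN2. Pdgfra was at 927, 817 and 931 CPM in RW and 763, 644 and 1111 CPM in aN1aN2, with overlapping samples (-0.10 ± 0.20, adjusted p = 0.778). Dcn rose as given above, and Lum, Clec3b (-1.58) and Dpt (-1.41) fell. None of the 5 was called in aJ1aJ2 (1 at an unadjusted p under 0.05, a level that 8.53% of all genes reached). Of 8 genes of adventitial fibroblasts, the cells that line larger vessels and fascia, 6 fell in aN1aN2 and none was called in aJ1aJ2 (2 at an unadjusted p under 0.05). Cd248, endosialin, was at 427, 686 and 423 CPM in RW, 368, 330.5 and 280.5 CPM in aJ1aJ2 and 31.5, 13.3 and 31.4 CPM in aN1aN2 (-4.36 ± 0.35, adjusted p = 8.6e-08), and Pi16 at 1707, 4092 and 1216, 1390.3, 1467 and 1548 and 303, 192 and 377 CPM (-3.04 ± 0.36). In both genes all aN1aN2 samples were the lowest. Scara5 of the same list did not pass (0.13). Of 4 listed genes of parenchymal fibroblasts, all tested, 2 rose and 2 fell in aN1aN2 (median log2 change -0.07). None of them was called in aJ1aJ2 (1 at an unadjusted p under 0.05).

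Among ligands, 18 of 26 growth factors and chemokines were tested in aN1aN2, 3 rose and 5 fell. Vegfd, a lymphatic growth factor, was at 23.1, 55.3 and 38 CPM in RW and 183, 186 and 136 CPM in aN1aN2 (2.06 ± 0.33), Bmp4 at 104, 151 and 128 and 297, 438 and 367 CPM (1.50 ± 0.22), and Vegfa at 112, 80.4 and 71.3 and 170.3, 338 and 168 CPM (1.39 ± 0.30). The groups did not overlap in these 3 genes. Clec11a (-4.06), Wnt5a (-1.61), the chemokine Cxcl12 (-1.29), Igf1 (-1.04) and Gdf10 (-0.71) fell. The call of Wnt5a was lost without RW 1, RW 2, aN1aN2 1 or aN1aN2 2, with equal cells and after thinning, and that of Vegfa without aN1aN2 2. Gdf10 was lost in 10 alternatives, Cxcl12 with equal cells and without F cells holding other cells' markers, and Igf1 with equal cells and without aN1aN2 1 or aN1aN2 2. Of 9 growth factor receptors, Igf1r (1.04) and Tgfbr3 (0.69) rose and none fell, a share near the 19.8% of all genes called. Igf1r was lost without RW 1, RW 2, aN1aN2 2 or aN1aN2 3, with equal cells and after thinning. Tgfbr3 was lost without RW 1, RW 3, aN1aN2 1 or aN1aN2 2, with equal cells, with no filter, and without F cells holding other cells' markers.

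Igfbp3 (chr11:7206086-7213923), which binds insulin-like growth factors in the extracellular space, was higher under both treatments. It was at 150.0, 123 and 128 CPM in RW, 432, 274 and 432 CPM in aJ1aJ2 and 1943, 2886 and 4495 CPM in aN1aN2, and the 3 groups did not overlap. The log2 change was 1.50 ± 0.28 in aJ1aJ2 (adjusted p = 0.0181) and 4.53 ± 0.30 in aN1aN2 (adjusted p = 1.73e-08). The call in aJ1aJ2 was lost without RW 1, RW 2, aJ1aJ2 1 or aJ1aJ2 4, without F cells holding other cells' markers, after thinning to the smallest total, and with 26 cells drawn from every sample, where the log2 change was 0.31. Thinned F cells with an Igfbp3 UMI were 8.26% in RW, 9.67% in aJ1aJ2 and 29.2% in aN1aN2 (18.3, 18.2 and 35.5% unthinned). EC1 cells carried the transcript at 3654 to 4939 CPM in RW and 3605 to 3943 CPM in aN1aN2, without the scaling between samples. The change in F cells differed from that in EC1 under both treatments (adjusted p = 5.95e-05 and 2.23e-14, with 0.471 and 5.67% of 7861 genes passing that test in aJ1aJ2 and aN1aN2). Igfbp5, in contrast, fell in aN1aN2 (2446, 4376 and 898 against 322, 332 and 105 CPM, -3.30 ± 0.44, adjusted p = 2.73e-05), as did Igfbp7 (-1.15) and Igfbp4 (-0.58), the latter a call lost in 11 alternatives.

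The Notch pathway itself was thinly covered in F cells. Of 9 receptors and ligands, Notch2 and Jag1 passed the filter. Notch2 was at 88.5, 123 and 85.5 CPM in RW, 80.9, 102 and 98.5 CPM in aJ1aJ2 and 56.8, 66.3 and 94.3 CPM in aN1aN2, and Jag1 at 69.2, 52.8 and 33.3, 66.2, 39.9 and 51.8 and 75.7, 39.8 and 31.4 CPM. The groups overlapped, and neither gene was called in either comparison with RW. Notch1 had 5, 18 and 7 UMIs in the F cells of RW, aJ1aJ2 and aN1aN2, and Notch3 had 9, 16 and 0. Of 8 Notch target genes, Hes1 and Dtx4 passed the filter. Hes1, the transcriptional repressor that Notch induces, was at 246, 103 and 114 CPM in RW, 105, 63.3 and 75.1 CPM in aJ1aJ2 and 75.7, 13.3 and 41.9 CPM in aN1aN2. Every aN1aN2 sample lay below every control sample (-1.77 ± 0.47, adjusted p = 0.0124), and the call was lost without RW 1 or aN1aN2 2. Dtx4, an E3 ligase of the Deltex family, was at 50, 47.8 and 33.3 CPM in RW, 24.5, 26.2 and 55.1 CPM in aJ1aJ2 and 50.5, 79.6 and 31.4 CPM in aN1aN2, with overlapping samples, and did not pass (0.34 in aN1aN2, -0.32 in aJ1aJ2). In aJ1aJ2 Hes1 did not pass (-0.94 ± 0.32, adjusted p = 0.322). Heyl had 24, 24 and 1 UMIs, and Dlk1, which encodes a secreted or membrane-bound relative of the ligands, had 1, 12 and 46. All 46 came from aN1aN2 3 (0, 0 and 482 CPM in the 3 samples).

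Genes induced by glucocorticoid hormones were higher in aN1aN2. All 9 listed were tested and all 9 rose (median log2 change 3.35), and none was called in aJ1aJ2 (median 0.57, with 4 of 9 at an unadjusted p under 0.05, against 8.53% of all genes tested). Tsc22d3, or GILZ, was at 154, 249 and 323 CPM in RW, 456, 479 and 381 CPM in aJ1aJ2 and 2751, 2806 and 2263 CPM in aN1aN2 (3.44 ± 0.24 in aN1aN2, adjusted p = 2.26e-08). Pdk4, a kinase that restrains glucose oxidation, was at 23.1, 12.6 and 9.5 CPM in RW and 215, 305 and 178 CPM in aN1aN2 (3.95 ± 0.39), and the transcription factor Zbtb16 at 26.9, 55.3 and 52.3 and 379, 644 and 409 CPM (3.38 ± 0.37). In each of the 3 genes the aN1aN2 samples lay above all others. Every tested member of the list rose in aN1aN2 under every alternative run (8 were tested after thinning to the smallest total). Genes of the dissociation response moved beside them, with 5 of 10 higher in aN1aN2, among them Fos (3.50), and their part in these changes was not tested.

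Some clock genes were higher in aJ1aJ2. Of 16 listed, 13 were tested, 4 rose (Per3, Nr1d1, Nr1d2 and Hlf) and 9 did not pass the test (median of the 13, 1.49). Per3 was at 11.5, 15.1 and 19 CPM in RW and 76, 60.6 and 71.8 CPM in aJ1aJ2 (2.17 ± 0.35, adjusted p = 0.00639). Nr1d1, the repressor REV-ERB alpha, was at 23.1, 30.2 and 138 CPM in RW and 152, 180.4 and 209 CPM in aJ1aJ2 (1.68 ± 0.37, adjusted p = 0.0468). The groups did not overlap in either gene, but RW 3 lay close to aJ1aJ2 in Nr1d1. Both genes were also higher in EC1 cells of aJ1aJ2. There Per3 stood at 6.73 to 37.7 CPM in RW and 45.8 to 68.6 CPM in aJ1aJ2, and Nr1d1 at 21.7 to 91.9 and 126 to 165 CPM. The change in F cells minus that in EC1 was 0.29 for Per3 and -0.03 for Nr1d1 on the log2 scale. Neither difference passed the test of F against EC1. Dbp was at 7.69, 2.51 and 228 CPM in RW and 331, 154 and 155 CPM in aJ1aJ2 and did not pass (adjusted p = 0.431). RW 3 was far above the other control samples and within the range of aJ1aJ2. Nr1d1 was lost in 11 of 18 alternatives, among them DESeq2, equal cells, thinning, and leaving out RW 1, RW 2 or any aJ1aJ2 sample. Nr1d2 was lost with equal cells and without RW 1, RW 2 or aJ1aJ2 3, and Hlf in DESeq2, in a fit of the 2 groups alone, and without RW 1, RW 2, aJ1aJ2 3 or aJ1aJ2 4. The number of clock genes called was 2 in DESeq2, 0 of 5 tested with equal cells, 0 of 2 tested after thinning, 0 without RW 2, 1 without RW 1 or without aJ1aJ2 3, 2 without aJ1aJ2 4 and 7 without RW 3. In aN1aN2 only Per1 rose among the 13 (1.46), a call lost with equal cells and without RW 2, aN1aN2 1 or aN1aN2 2.

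**Figure D5:**
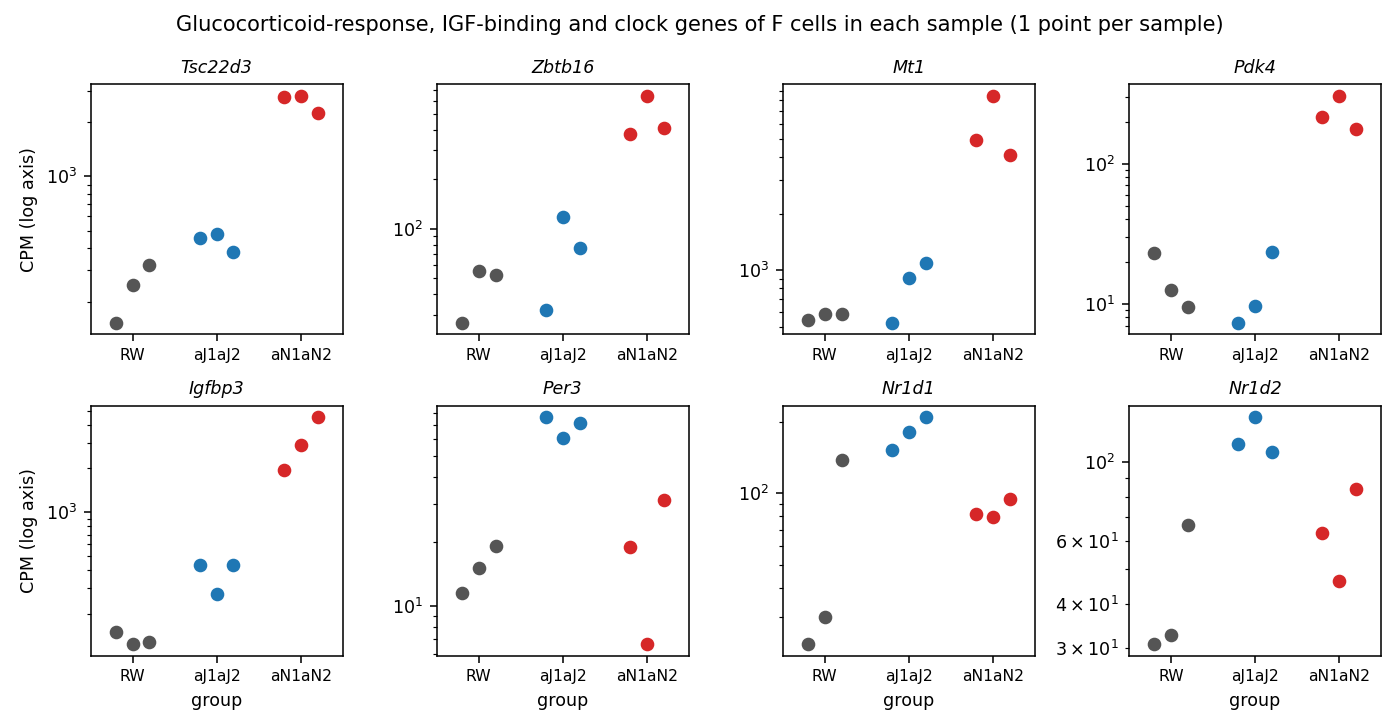
CPM in F cells of 8 genes, 1 point per sample, on a log axis that differs between panels. Tsc22d3, Zbtb16, Mt1, Pdk4 and Igfbp3 are highest in the 3 aN1aN2 samples, and Per3, Nr1d1 and Nr1d2 are highest in the 3 aJ1aJ2 samples, with RW 3 the highest control sample in these clock genes.

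The 2 blockade groups were also compared with each other. In aN1aN2 against aJ1aJ2, 775 genes (16.0%) passed the test, 371 higher (7.67%) and 404 lower (8.35%), and in 34.8% the samples of the 2 groups did not overlap. The comparisons with RW share their control samples, and aN1aN2 enters both of its comparisons. Of the 111 matrix genes, 8 were higher in aN1aN2 and 50 lower (median log2 difference -0.81, against -0.02 over all genes). All 6 fibrillar collagens were lower, Col3a1 by 2.94 and Col1a1 by 1.90 on the log2 scale. The call of Col5a3 was lost in 10 alternatives, among them any left-out sample, and that of Col5a2 without aN1aN2 2 and without F cells holding other cells' markers. Cilp (-3.17), Thbs4 (-3.33) and Myoc (-2.09) were lower, and Lox (2.54), Mmp14 (1.35) and Thbs1 (2.81) higher. All 9 glucocorticoid-response genes were higher in aN1aN2. The clock activators Arntl (2.62, a call lost without aJ1aJ2 4 or aN1aN2 1) and Npas2 (2.31) were higher, and the clock repressor Bhlhe40 (-2.30, lost without aN1aN2 2) and the endoplasmic reticulum isomerase Pdia6 (-1.53) lower. Angptl4 stood at opposite sides of control in the 2 groups and differed between them by 3.59 ± 0.33 (adjusted p = 7.84e-07).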

How the data were processed

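Single-cell RNA sequencing (10x Genomics 3' v2, per the labels' protocols) measured 10186 cells of 9 thyroid samples. The authors deposited raw UMI counts per cell with a cell annotation; Cell Ranger and the genome build GRCm38 are named per the submitters' processing notes, and how the cell labels were made and doublets were treated is not given in the sources used here. An unquoted comma that shifted 2619 annotation lines was repaired. No doublet caller was run. F cells were taken by their label, and their deposited counts were summed per sample. Genes without a symbol held 0.0293% of UMIs.

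Sums were tested with edgeR 4.0.16 in R 4.3.3 (filterByExpr, TMM, quasi-likelihood F test, all 9 samples in 1 fit with 3 group means, Benjamini-Hochberg adjustment over all genes tested, threshold 0.05). CPM of F cells by sample use TMM library sizes of the genes tested. Percentages of UMIs, EC1 values, cluster values and values set across labels do not. Change in F cells was also tested against change in EC1, with sample as a block. DESeq2 1.42.0 was an alternative, as were other filters, cell selections, left-out samples and depths. Depth-scaled ratios carry exact 95% counting intervals, and a group at 0 was set to a floor of 3 counts over the group; intervals and floors cover counting error only. Cells were thinned to 1000 UMIs to compare shares of cells. Clusters came from scanpy 1.11.5. On simulated counts for 4342 genes of aJ1aJ2 against RW, 78.0% of 100 genes changed by a log2 of 1 and 98.0% of 100 changed by 2 were called, with 12 unchanged genes called. The changed genes were drawn only from those above the median level, and the spread followed the fitted trend. These rates therefore do not cover genes with lower counts.

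Genes were named by rule: for each comparison the 8 largest rises and 8 largest falls among called genes whose groups do not overlap, up to 4 called members with the largest change in each matrix, growth factor, receptor, Notch, clock, glucocorticoid and endoplasmic reticulum list, the 3 most abundant members of each matrix list, the fibroblast markers, and the tested Notch genes. Other genes were named after their values were seen, such as Pi16, Scara5 and Fos. A result on an item withheld for evaluation is not reported here. The members and gene lists were chosen with earlier results of these data known. Lists are described by counts and medians and have no test of their own. The p-values measure the spread between pools of 6 mice.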

Additional observations from a re-analysis of the deposited data

Results flagged for a closer look

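The response of F cells was compared with that of EC1 cells of the same samples by testing the difference of the 2 log2 changes (edgeR quasi-likelihood test, 7861 genes). The difference had an adjusted p under 0.05 for 37 genes (0.471%) in aJ1aJ2 against RW, 24 with a higher change in F and 13 with a lower one (15 and 14 with DESeq2 size factors), and for 446 genes (5.67%) in aN1aN2 against RW.

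The change of Igfbp3 was higher in F cells than in EC1 cells under both treatments, by 1.93 on the log2 scale in aJ1aJ2 (adjusted p = 5.95e-05) and by 4.61 in aN1aN2 (adjusted p = 2.23e-14). In EC1 it stood at 3654 to 4939 CPM in RW, 2934 to 4018 CPM in aJ1aJ2 and 3605 to 3943 CPM in aN1aN2. The change of Sparc in aN1aN2 was lower in F cells, with a difference of -1.98 (adjusted p = 1.12e-07), and stood at 1959 to 2001 CPM in RW and 908 to 1076 CPM in aN1aN2 in EC1. That of Tsc22d3 was higher in F cells by 1.91 (adjusted p = 1.58e-06). In EC1 it stood at 434 to 589.8 CPM in RW and at 1335 to 1482 CPM in aN1aN2. The differences of 2 other glucocorticoid-response genes, Zbtb16 (0.04, adjusted p = 1) and Pdk4 (1.89, adjusted p = 0.150), did not pass the test. Cxcl13, a chemokine for B cells, differed by 4.83 (adjusted p = 0.00954), and was at most 4.57 CPM in EC1. So few UMIs in EC1 cannot show a change there, and the difference mainly repeats the change in F cells. Col3a1 was at most 11.1 CPM in EC1, and its difference did not pass the test in either comparison.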

How the results depend on the processing

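Counts of genes called in F cells moved most in aJ1aJ2 against RW. From 28, the count became 105 with no filter on low counts, 3 with 26 cells drawn per sample, 16 without the 142 F cells that held 2 or more UMIs of other cells' markers, 54 with the title range as a block, 71 within the second title range and 7 with samples thinned to 107055 UMIs (an alternative chosen after seeing the data, as was leaving out cells with over 5% globin, which gave 32). Leaving out 1 sample gave 4 to 44, with RW 2 absent at the low end, RW 3 absent at the high end, and 11 for RW 1, 7 for aJ1aJ2 3, 13 for aJ1aJ2 4 and 21 for aJ1aJ2 1, and DESeq2 gave 22. In aN1aN2 against RW the count of 958 became 540 after thinning and 661 to 939 with 1 sample left out. In aN1aN2 against aJ1aJ2 the count of 775 became 414 with equal cells, 391 after thinning and 465 to 644 with 1 sample left out. For F against EC1, 37 became 80 with no filter and 23 to 66 with 1 sample left out, and 446 became 265 to 379 (265 without aN1aN2 2).

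Of the called genes that the text names or the naming rule chose, 0 of 20 in aJ1aJ2 against RW passed under every alternative, 72 of 104 in aN1aN2 against RW and 60 of 94 in aN1aN2 against aJ1aJ2. Without aN1aN2 replicate 2, the globin genes Hba-a1 and Hba-a2 reversed to -0.030 and -0.23 in aN1aN2 against aJ1aJ2, where leaving out the other samples gave at most 5.15 and 4.90. That sample held the F cell rich in globin. The difference in share stayed positive for aJ1aJ2 and aN1aN2 against RW in every alternative run.

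RW and aN1aN2 share title numbers 1 and 2. With these numbers as a replicate block 921 genes were called (467 higher, 454 lower), against 675 (362 and 313) in the same samples with no block. With no block the calls of Cilp, Cxcl12, Gdf10, Hes1, Igfbp4, Nid2, Timp2 and Tnfaip6 were lost. So was that of Sparcl1, which was lower in aN1aN2 and lost its call in 9 of 18 alternatives. The deviations of the paired samples correlated at 0.0117, and nothing in the labels says that the numbers mark a shared origin. The other comparisons share fewer than 2 title numbers, so no block could be fitted there. Leaving samples with under 10 F cells out changed nothing, since every sample had 26 or more. Depth limits genes with few UMIs, among them most Notch genes.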

Other observations

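Other genes of the F cells also differed between aN1aN2 and RW. Agt, angiotensinogen, was listed at 0 in all 3 RW samples and stood at 50.5, 73 and 52.4 CPM in aN1aN2, at least 17.2-fold higher than a floor of 3 counts over the RW group. Lgr5, a receptor for R-spondins, was at 0 in RW, 46.6, 4.13 and 31.7 CPM in aJ1aJ2 and 6.31, 39.8 and 41.9 CPM in aN1aN2, at least 7.87-fold higher in aN1aN2 than RW. The aJ1aJ2 and aN1aN2 samples overlapped, and its call against RW was lost without RW 1, aN1aN2 2 or aN1aN2 3. Cxcl13 was at 50, 379.5 and 0 CPM in RW, 76, 136 and 10 CPM in aJ1aJ2 and 4871, 2109.6 and 3059.8 CPM in aN1aN2 (4.40 ± 0.75 against RW, adjusted p = 0.000383). Its thinned share of F cells with a UMI was 2.75% in RW and 14.2% in aN1aN2 (5.83 and 14.9% unthinned). Sox4, a transcription factor, was at 96.1, 37.7 and 23.8 CPM in RW and 883, 836 and 597 CPM in aN1aN2 (3.89 ± 0.33), and the noncoding RNA Gm12840 at 19.2, 12.6 and 4.75 and 524, 219 and 231 CPM (4.68 ± 0.44). Lgals1, the secreted lectin galectin 1, was at 1727, 1111 and 1449 CPM in RW, 1307, 1111 and 1087 CPM in aJ1aJ2 and 132, 113 and 105 CPM in aN1aN2 (-3.59 ± 0.24). Cdo1, cysteine dioxygenase, was at 19.2, 7.54 and 23.8 CPM in RW and 290.2, 239 and 94.3 CPM in aN1aN2 (3.83 ± 0.43), and the unnamed transcript Gm20186 at 3.85, 7.54 and 14.3 and 50.5, 172 and 105 CPM (3.69 ± 0.63). Ckb, brain creatine kinase, was at 173 ± 31.6 CPM in RW (mean ± SD, n = 3) and 12.6, 19.9 and 0 CPM in aN1aN2 (-3.75 ± 0.63), and AY036118 at 835, 852 and 185 and 37.9, 39.8 and 41.9 CPM (-3.99 ± 0.54). With 1 or 2 UMIs in aN1aN2, the depth-scaled ratio of RW to aN1aN2 was 22.4 (95% counting interval 3.83 to 901.7) for Gipc1, 19.6 (3.33 to 791) for Tmem184b, 22.1 (5.96 to 185) for Lrrc17 and 12.3 (3.25 to 105) for Rab3il1. In Sox4, Gm12840, Cdo1, Gm20186, Ckb, AY036118 and Lgals1 the aN1aN2 samples lay apart from all 6 others. The 4 globin genes tested were also higher in aN1aN2, with Hbb-bs at 637, 27147 and 943 CPM, the highest value in the sample with the globin-rich F cell. The calls of Hba-a1, Hba-a2 and Hbb-bt against RW were lost without that sample, and DESeq2 gave no adjusted p for these 4 genes. With the 2 F cells of over 5% globin left out, all 4 genes were still called higher in aN1aN2 against RW, and their median log2 change was 2.02 in place of 6.10.

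When the F cells were clustered on their own expression, 6 clusters resulted, which are described and left unnamed. The largest, 208 cells, was led by Pi16, Fn1 and Sema3c, the first and last of which are on the list of adventitial fibroblast genes. A cluster of 125 cells was led by Mgp, Sparcl1 and Timp3, and 1 of 65 cells by Myoc, Thbs4 and Cxcl14. A cluster of 9 cells was led by Sfrp5 and held the perineurial genes Itgb4, Slc2a1 and Cldn1 among its 10 leading genes, with 3437 CPM summed over the 3 perineurial markers against at most 35.9 CPM in the other clusters. A cluster of 30 cells was led by Ptn. The 101 cells of the last, led by globins, Cxcl13 and Igfbp3, came from aN1aN2 samples alone. Of the 7431 globin UMIs in that cluster, 6994 lay in the 1 globin-rich cell, and without it the cluster held 1103 CPM of globin in place of 18253 CPM. Since the genes that lead these clusters differ between the groups, cluster sizes were not compared.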
